A study of Mus musculus with 16 samples.

Results

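The integrated stress response and the unfolded protein response were followed through 42 genes of the 20325 in the deposited expression table. The genes were taken by symbol from a list of known members of both responses, chosen with earlier results of these data known. Shares of all genes given beside their counts therefore describe the lists and do not test them. The genes fall into 30 of the ATF4 and amino acid branch and 12 chaperones and regulators of the endoplasmic reticulum (ER). All 42 were in the table and passed the filter on low values. Polyadenylated RNA was sequenced from C3H10T1/2, a mouse embryonic fibroblast line with mesenchymal stem cell properties, in 16 libraries, 2 for each of 8 histone H3 transgenes. The transgenes were carried by lentivirus, with 2 days of transduction and 4 days of selection in 1.5 µg/ml puromycin, and were expressed on top of the cells' own histone genes. The mutant groups were H3.3 G34W K27R, H3.3 G34W K36R, H3.3 K27R, H3.3 G34R, H3.3 G34W and H3.1 G34W, and the controls were H3.1 wild type and H3.3 wild type, so that every group carries a virus and was selected with puromycin. G34W and G34R replace a glycine of the histone tail with tryptophan or arginine, and K27R and K36R replace a lysine that Polycomb repressive complex 2 or the K36 methyltransferases can methylate with arginine, which they cannot. The labels do not say whether libraries of 1 group came from separate cultures. The p-values below thus measure the spread between libraries, which may be technical. For each gene that spread was estimated over all groups together, and is not that of the compared groups alone.

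In the integrated stress response, kinases that sense amino acid shortage, ER stress, viral RNA or haem shortage phosphorylate the initiation factor eIF2 alpha, which lowers protein synthesis overall while raising translation of the transcription factor ATF4. ATF4 then switches on genes for amino acid synthesis, amino acid transport and tRNA charging, and further regulators such as CHOP. The unfolded protein response overlaps with it through the ER kinase PERK, and its other arms, ATF6 and the IRE1-spliced factor XBP1, raise chaperones and disulfide isomerases inside the ER.

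The promoters of the 2 gene lists hold different short motifs, shown here because the lists also behave differently in the data. RefSeq promoters (GRCm38.p6) were found for 34 of the 42 genes, 24 of the ATF4 list and 10 of the ER list, and only the 250 bases before each start were searched, on both strands. The ER stress element, through which ATF6 and NF-Y are known to act, was written as CCAAT, any 9 bases and CCACG. It was present in 5 of 10 ER promoters (50%), in 0 of 27 promoters of the ATF4 list and in 0.113% of all promoters. Capitals mark its fixed letters; a site on the opposite strand reads CGTGG and then ATTGG.
Hspa5, chr2:34772013-34772055, plus strand: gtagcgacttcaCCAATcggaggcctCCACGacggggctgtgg
Hsp90b1, chr10:86705626-86705668, minus strand: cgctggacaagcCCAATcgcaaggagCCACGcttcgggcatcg
Hsp90b1, chr10:86705521-86705563, minus strand: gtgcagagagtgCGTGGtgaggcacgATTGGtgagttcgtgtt
Pdia6, chr12:17266479-17266521, plus strand: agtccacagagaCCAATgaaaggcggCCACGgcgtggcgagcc
Creld2, chr15:88819508-88819550, plus strand: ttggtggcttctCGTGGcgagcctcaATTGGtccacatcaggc
Calr, chr8:84847063-84847105, minus strand: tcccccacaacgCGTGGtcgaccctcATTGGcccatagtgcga

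The composite motif through which ATF4 and C/EBP factors act was searched as TGATGNAAT and as ATTGCATCA. TGATGNAAT was found in 2 of the 27 promoters of the ATF4 list (7.41%), that of Gars among them, against 0.816% of all promoters. ATTGCATCA, 1 form of the same motif on the opposite strand, was in 1 of the 27, against 0.167% of all promoters. That site is already counted among the 2. The shorter TGATGNAA, which overlaps the longer motif and was chosen after the promoters and the values had been seen, was found in 8 of 24 genes of the ATF4 list (29.6% of their promoters), in 1 of 10 genes of the ER list (Herpud1) and in 3.45% of all promoters. Capitals again mark the fixed letters, and TT, any base and CATCA is the form on the opposite strand. The 5 sites shown belong to genes whose values in every library follow.
Asns, chr6:7693213-7693244, minus strand: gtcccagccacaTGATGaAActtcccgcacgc
Chac1, chr2:119351037-119351068, plus strand: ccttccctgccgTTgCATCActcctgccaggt
Atf3, chr1:191183424-191183455, minus strand: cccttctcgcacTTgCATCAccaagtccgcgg
Gars, chr6:55037959-55037990, plus strand: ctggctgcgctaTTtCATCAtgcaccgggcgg
Tars, chr15:11399659-11399685, minus strand: ccaggagtcccgTTgCATCAgctggtt
A match of letters describes these windows and was not tested as a binding site.

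Values are given in the deposited unit, estimated read counts scaled by 1 constant per library, without correction for gene length, so levels are compared between groups and not between genes. Estimated depth was 34.8 to 49.1 M reads in the H3.3 G34W K36R group and both H3.1 groups and 26.02 to 33.8 M in the other 5 groups, and 3 reads correspond to 2.27 to 3.74. Of 10 mesenchymal markers, 9 had a median above 10 and 8 a median above 1000, while the haematopoietic marker Ptprc (0 to 2.13), the endothelial markers Pecam1 and Kdr (0 to 9.39) and the epithelial marker Epcam (0 to 1.21) were near 0 in every library. Other markers of these cell types were not: Cd14 ran from 99.5 to 331, the endothelial gene Tek from 59.6 to 3037 and Cdh5 from 0 to 70.0, and the epithelial gene Cdh1 reached 299.9, and their part in the results was not tested. Libraries of 1 group were nearly alike in 5 groups: over genes with whole reads, the chi-square per degree of freedom was 0.958 in H3.3 wild type and 1.17 to 1.37 in H3.3 G34R, H3.3 K27R and the double mutants, against 48.5 in H3.3 G34W, 44.0 in H3.1 G34W and 32.8 in H3.1 wild type. The 2 wild type H3.3 libraries could not be told from resampling of 1 library on those genes (p = 0.943) and were averaged to 1 sample; over all 12462 genes with enough reads they differed by more (chi-square p = 6.71e-63). In these bulk samples fewer responding cells and less RNA per cell cannot be told apart, and neither translation of ATF4 nor splicing of Xbp1 was measured.

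Most of the 42 genes differed somewhere among the 8 transgenes, and the 2 lists were not high in the same groups. Amino acid and ATF4 genes were at their lowest with H3.3 G34W K27R, H3.3 G34R and 1 of the H3.3 G34W libraries and at their highest with both H3.1 transgenes and H3.3 G34W K36R. By list median the ER genes were highest with H3.3 G34W K27R and lowest with H3.3 G34W K36R, but not every gene followed. In H3.3 G34W K36R against H3.3 wild type, 8 of 12 ER changes were below 0 and 4 above, Hsp90b1 and Pdia4 among the latter. A limma F-test over the 8 groups called 28 of 30 genes of the ATF4 list and 10 of 12 of the ER list at an adjusted p under 0.05, against 66.6% of all 12670 genes tested, so a call here is common among genes of any kind. The 4 genes not called were Hyou1, Ppp1r15a, Herpud1 and Mars, with limma adjusted p of 0.0637, 0.0666, 0.0978 and 0.106. With the 5 nearly alike pairs each counted as 1 sample, 5 of the 42 were called, against 8.13% of all genes.

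**Figure D1:**
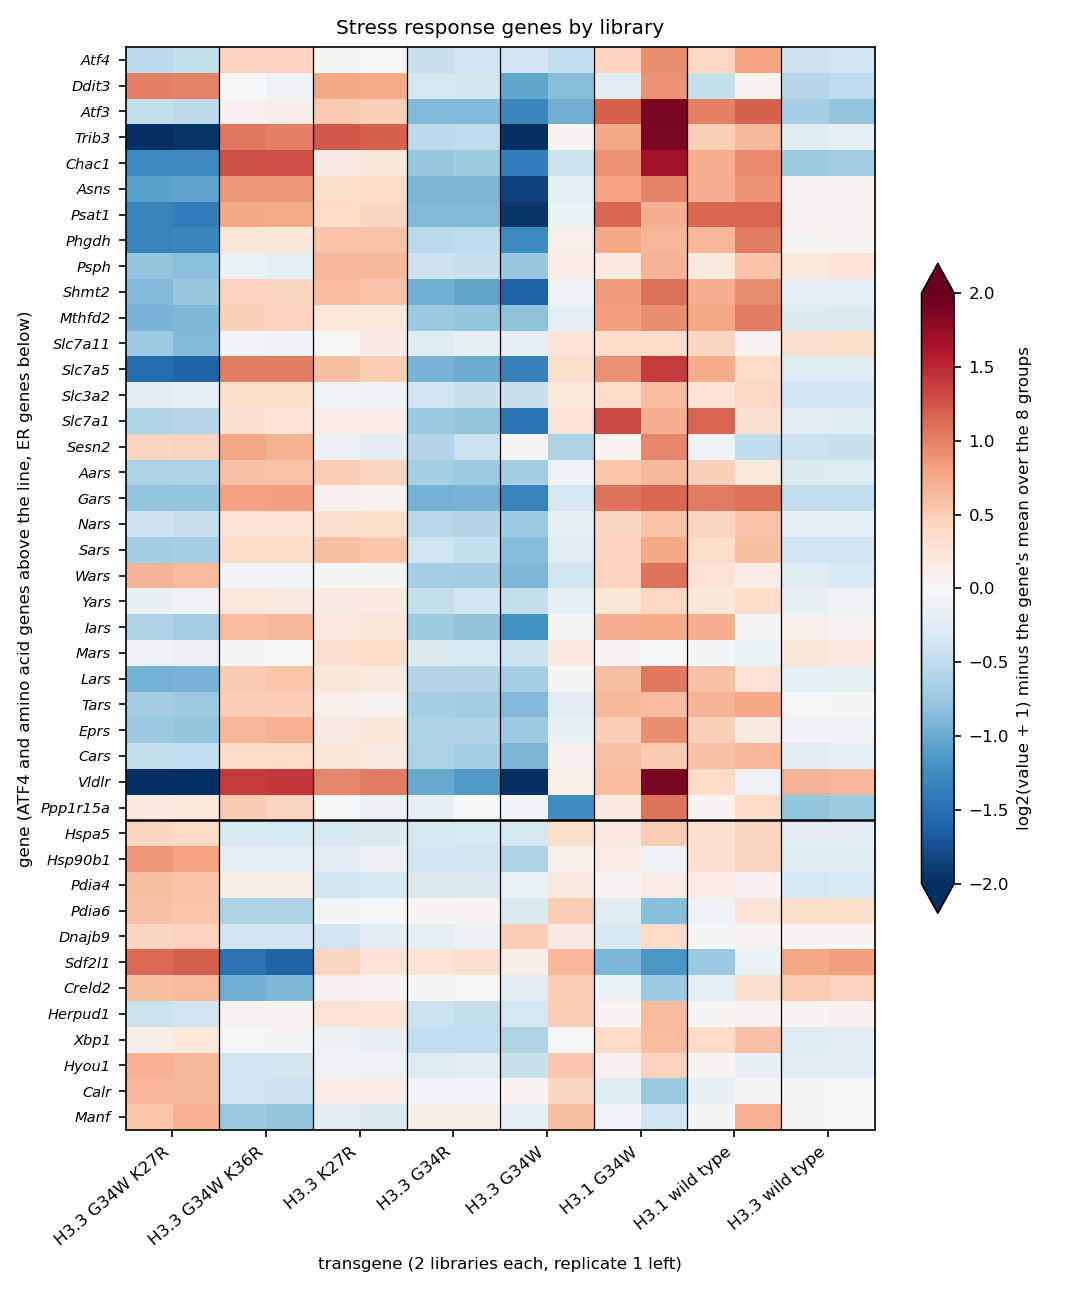
Heat map of the 42 genes (rows, by list) in the 16 libraries (columns, by group). Colour gives log2(value + 1) minus the gene's mean over the groups, clipped at ±2, and the H3.3 G34W K27R columns are low for most ATF4 genes and high for most ER genes, with the reverse in H3.3 G34W K36R.

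The median of a list in a library, taken over its genes as log2(value + 1) minus each gene's mean over the groups, shows the same by numbers. For the 30 ATF4 genes it was -0.69 and -0.70 in H3.3 G34W K27R, 0.47 and 0.45 in H3.3 G34W K36R, 0.24 and 0.24 in H3.3 K27R and -0.63 and -0.63 in H3.3 G34R. It was -0.90 and -0.14 in H3.3 G34W, 0.59 and 0.92 in H3.1 G34W, 0.47 and 0.49 in H3.1 wild type and -0.23 and -0.20 in H3.3 wild type. The 3 groups with the deeper libraries thus had the 3 highest ATF4 medians; the part of depth in this was not tested. For the 12 ER genes the median was 0.59 and 0.60 in H3.3 G34W K27R and -0.39 and -0.38 in H3.3 G34W K36R, while the other 6 groups lay between -0.25 and 0.46, both of these in H3.3 G34W. In H3.3 G34W K27R, 4 of 30 ATF4 genes and 11 of 12 ER genes were above their own mean in each library, and in H3.3 G34W K36R 25 of 30 and 3 of 12.

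**Figure D2:**
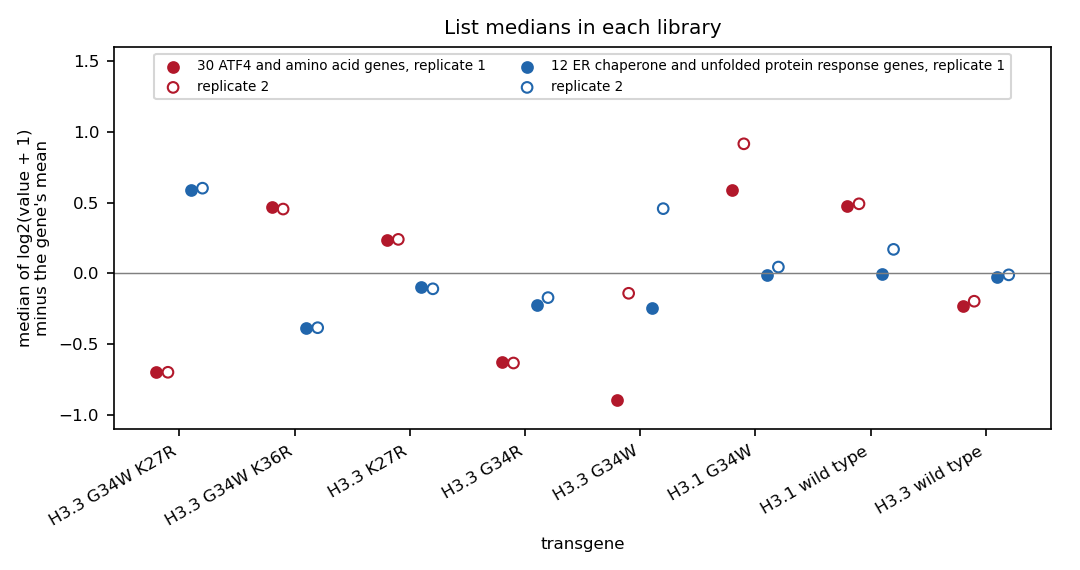
Median of each list per library (vertical axis, log2 units from each gene's mean over the groups), with 1 point per library and groups along the horizontal axis. The ATF4 points lie below 0 and the ER points above 0 in H3.3 G34W K27R, the other way round in H3.3 G34W K36R, and the 2 points of H3.3 G34W are far apart in both lists.

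The ATF4 list was also described by its 4 functional groups. The group called regulators also holds effectors of the branch, such as Chac1 and Vldlr. In H3.3 G34W K27R, on average over its libraries, serine, one-carbon and asparagine synthesis genes had a median of -0.99, the amino acid transporters -0.70, the tRNA synthetases -0.63 and the regulators -0.50. In H3.3 G34W K36R the synthesis genes had 0.46, the transporters 0.32, the synthetases 0.44 and the regulators 0.62. H3.3 G34R was low throughout, from -0.83 for a library of the synthesis genes to -0.47 for a library of the regulators. The groups did not always share a sign: for H3.3 G34W K27R against H3.3 wild type the median change was -1.09 for the synthesis genes and 0.07 for the regulators. The highest library of a gene exceeded its lowest by 1.72 times for Mars, the methionyl-tRNA synthetase, up to 26.5 times for Trib3. The highest value belonged to replicate 2 of H3.1 G34W for 20 of 30 ATF4 genes and to a H3.3 G34W K27R library for 8 of 12 ER genes. The lowest belonged to replicate 1 of H3.3 G34W for 19 ATF4 genes and 4 ER genes and to a H3.3 G34W K36R library for 4 ER genes.

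The H3.3 G34W pair itself was split on this axis. Replicate 2 was higher than replicate 1 for 27 of 30 ATF4 genes, with a median difference of 0.67 on the log2 scale, and for 11 of 12 ER genes, with a median of 0.70, while over all tested genes the median difference was 0.02. Of the ATF4 genes 11 (36.7%) differed by more than 1 log2 unit between these libraries, against 17.2% of all genes. Trib3 had 360.4 in replicate 1 and 2646 in replicate 2, and Vldlr 314 and 2271. Both lists moved the same way here, unlike in the double mutants. In H3.1 G34W the ATF4 median difference was 0.24 and 3 of 30 genes passed 1 log2 unit, against 15% of all genes. In the other 6 groups no gene of either list did, against 0.766% to 8.13% of all genes.

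Among the regulators, Atf4 itself, the transcription factor at the centre of the response, was high in 3 groups. Atf4 had 10946 and 11268 in H3.3 G34W K27R cells, 21633 and 21662 in H3.3 G34W K36R cells, 15883 and 15656 in H3.3 K27R cells and 11491 and 11863 in H3.3 G34R cells. It had 11832 and 11103 in H3.3 G34W cells, 21637 and 29837 in H3.1 G34W cells, 20835 and 27212 in H3.1 wild type cells and 11738 and 11932 in H3.3 wild type cells. All 6 libraries of H3.3 G34W K36R and of the H3.1 transgenes lay at 20835 or above and all 10 others at 15883 or below; these are the groups with the deeper libraries. H3.3 K27R came next, and the 4 remaining groups lay close together, from 10946 to 11932.

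Ddit3 encodes CHOP, a transcription factor that promotes cell death under lasting stress. Ddit3 had 6499 and 6428 in H3.3 G34W K27R cells, 3202 and 3034 in H3.3 G34W K36R cells, 5450.4 and 5372 in H3.3 K27R cells and 2512 and 2499 in H3.3 G34R cells. It had 1573 and 1792 in H3.3 G34W cells, 2768 and 6036 in H3.1 G34W cells, 2314 and 3401 in H3.1 wild type cells and 2169 and 2256 in H3.3 wild type cells. H3.3 G34W K27R was highest here, although Atf4 and most amino acid genes were low in it, H3.3 K27R was next, and the H3.1 G34W pair was wide apart.

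Atf3, a stress-induced factor downstream of ATF4, had the largest F statistic of the 42 genes (35.7). Atf3 had 206 and 198 in H3.3 G34W K27R cells, 304 and 314 in H3.3 G34W K36R cells, 411 and 401 in H3.3 K27R cells and 155 and 155 in H3.3 G34R cells. It had 115 and 148 in H3.3 G34W cells, 656 and 1067 in H3.1 G34W cells, 579 and 653 in H3.1 wild type cells and 180.0 and 165 in H3.3 wild type cells. Both H3.1 groups lay above all others and H3.3 G34W below all others, while H3.3 wild type and H3.3 G34R were next lowest without overlap between them.

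Chac1, whose product degrades glutathione, is a known ATF4 target. Chac1 had 645 and 643 in H3.3 G34W K27R cells, 3729 and 3755 in H3.3 G34W K36R cells, 1719 and 1789 in H3.3 K27R cells and 912 and 943 in H3.3 G34R cells. It had 587 and 1139 in H3.3 G34W cells, 2864 and 4911 in H3.1 G34W cells, 2533 and 2944 in H3.1 wild type cells and 939.9 and 945 in H3.3 wild type cells. The same 3 groups as for Atf4 were highest without overlap with the rest, and H3.3 G34W spread from below H3.3 G34W K27R to above H3.3 wild type.

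**Figure D3:**
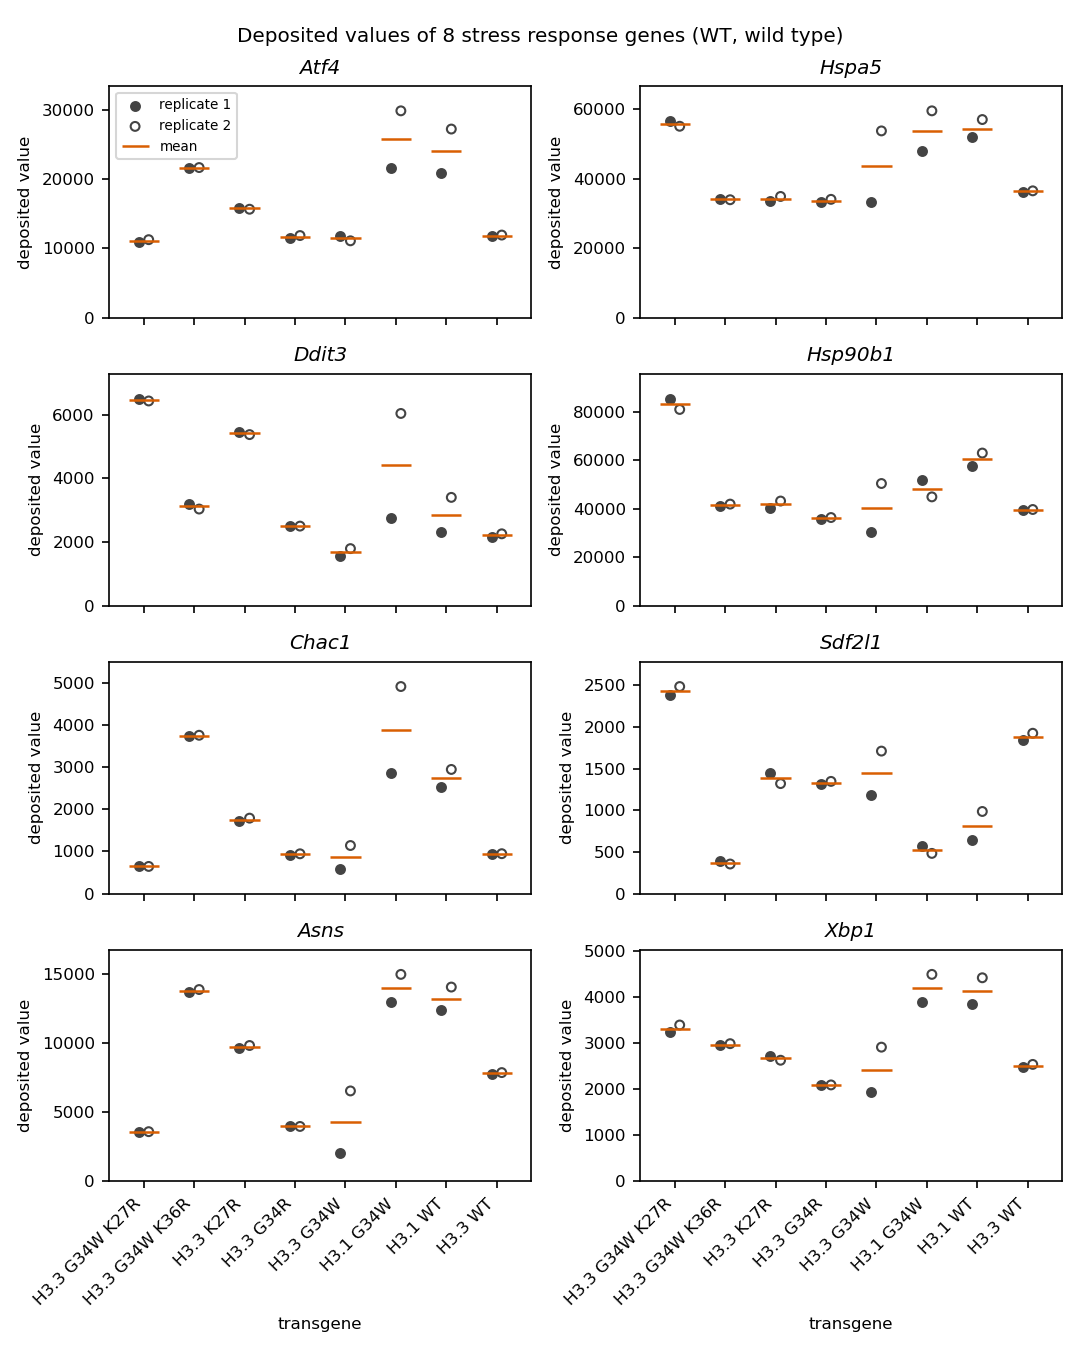
Deposited value of 8 genes in each library (vertical axes, linear scale), with 1 point per library and groups along the horizontal axis. Atf4, Chac1 and Asns are high in H3.3 G34W K36R and both H3.1 groups, Ddit3 and Hsp90b1 are highest in H3.3 G34W K27R, and Sdf2l1 is lowest in H3.3 G34W K36R.

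Asns makes asparagine and is the classical amino acid response gene. Asns had 3571 and 3596 in H3.3 G34W K27R cells, 13668 and 13875 in H3.3 G34W K36R cells, 9611 and 9828 in H3.3 K27R cells and 3978 and 3973 in H3.3 G34R cells. It had 2083 and 6542 in H3.3 G34W cells, 12964 and 14970.5 in H3.1 G34W cells, 12365 and 14054 in H3.1 wild type cells and 7765 and 7869 in H3.3 wild type cells. H3.3 G34W K27R and H3.3 G34R were low in both libraries, and H3.3 G34W held the lowest library of all, with its other library still below H3.3 wild type.

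Mthfd2, a mitochondrial folate enzyme that feeds one-carbon units into purine synthesis, followed a like order. Mthfd2 had 1612 and 1647 in H3.3 G34W K27R cells, 4276 and 4231 in H3.3 G34W K36R cells, 3583 and 3549.8 in H3.3 K27R cells and 1849 and 1797 in H3.3 G34R cells. It had 1759 and 2693 in H3.3 G34W cells, 5463 and 5882 in H3.1 G34W cells, 5237 and 6279 in H3.1 wild type cells and 2544 and 2524 in H3.3 wild type cells. Both H3.1 groups were highest and H3.3 G34W K27R lowest without overlap with the rest, and H3.3 G34R and replicate 1 of H3.3 G34W lay close to the low end.

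The tRNA synthetases that charge alanine, glycine and threonine had the largest F statistics among the 12 synthetases. Aars had 10418 and 10595 in H3.3 G34W K27R cells, 24459.8 and 24071 in H3.3 G34W K36R cells, 22747 and 22114 in H3.3 K27R cells and 10224 and 9855 in H3.3 G34R cells. It had 9994 and 15223 in H3.3 G34W cells, 23848 and 25326 in H3.1 G34W cells, 22476 and 18806 in H3.1 wild type cells and 13418 and 13559 in H3.3 wild type cells. H3.3 G34W K36R, H3.3 K27R and both H3.1 groups lay at 18806 or above, and all other libraries at 15223 or below.

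Gars had 5788 and 5756 in H3.3 G34W K27R cells, 17499 and 17585 in H3.3 G34W K36R cells, 10564 and 10441 in H3.3 K27R cells and 5167 and 5269.6 in H3.3 G34R cells. It had 3951 and 7891 in H3.3 G34W cells, 21168 and 22105 in H3.1 G34W cells, 20584 and 21206 in H3.1 wild type cells and 7101 and 7139 in H3.3 wild type cells. Here the H3.1 groups and H3.3 G34W K36R stood apart from H3.3 K27R, which in turn was above all libraries of the remaining 4 groups.

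Tars had 5563 and 5461 in H3.3 G34W K27R cells, 12613 and 12820.3 in H3.3 G34W K36R cells, 9636 and 9484 in H3.3 K27R cells and 5611 and 5572 in H3.3 G34R cells. It had 4865 and 7830.4 in H3.3 G34W cells, 14140.4 and 13851 in H3.1 G34W cells, 14485 and 15212 in H3.1 wild type cells and 9016 and 9143 in H3.3 wild type cells. H3.3 wild type, which was low for Gars, came just below H3.3 K27R for Tars, while the H3.1 groups and H3.3 G34W K36R were again highest.

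Of the ER chaperones, Hspa5 encodes BiP, the HSP70 of the ER lumen that also holds the stress sensors inactive. Hspa5 had 56592 and 55097 in H3.3 G34W K27R cells, 34182 and 33964 in H3.3 G34W K36R cells, 33634 and 34909.8 in H3.3 K27R cells and 33399 and 34079 in H3.3 G34R cells. It had 33357 and 53759.7 in H3.3 G34W cells, 47989 and 59531 in H3.1 G34W cells, 51874 and 57030.0 in H3.1 wild type cells and 36278 and 36524 in H3.3 wild type cells. H3.3 G34W K27R, both H3.1 groups and replicate 2 of H3.3 G34W were high, and all other libraries lay between 33357 and 36524.

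Hsp90b1, the HSP90 of the ER, was most abundant in H3.3 G34W K27R. Hsp90b1 had 85502 and 81061 in H3.3 G34W K27R cells, 41347 and 41959 in H3.3 G34W K36R cells, 40522 and 43227 in H3.3 K27R cells and 35899.9 and 36417 in H3.3 G34R cells. It had 30579 and 50467 in H3.3 G34W cells, 51821 and 44946 in H3.1 G34W cells, 57763 and 63044 in H3.1 wild type cells and 39423 and 39735 in H3.3 wild type cells. Both H3.3 G34W K27R libraries were above every other library, and H3.1 wild type was next.

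Pdia4, a disulfide isomerase, showed a narrower range. Pdia4 had 8083 and 7915 in H3.3 G34W K27R cells, 5789 and 5829.6 in H3.3 G34W K36R cells, 4111 and 4225 in H3.3 K27R cells and 4354 and 4401 in H3.3 G34R cells. It had 4836 and 6044 in H3.3 G34W cells, 5478 and 5907 in H3.1 G34W cells, 5876 and 5620.1 in H3.1 wild type cells and 4206 and 4287 in H3.3 wild type cells. H3.3 G34W K27R was again above every other library, with H3.3 K27R and H3.3 wild type lowest and overlapping.

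Sdf2l1, a cofactor of BiP, had the second largest F statistic of all 42 genes (34.2). Sdf2l1 had 2381 and 2485 in H3.3 G34W K27R cells, 388 and 354 in H3.3 G34W K36R cells, 1449 and 1319.9 in H3.3 K27R cells and 1314 and 1346 in H3.3 G34R cells. It had 1188 and 1710.1 in H3.3 G34W cells, 573 and 482 in H3.1 G34W cells, 643 and 985 in H3.1 wild type cells and 1846 and 1924 in H3.3 wild type cells. Its highest libraries were of H3.3 G34W K27R and its lowest of H3.3 G34W K36R, without overlap with other groups, and both H3.1 groups were below every library of H3.3 wild type, H3.3 K27R, H3.3 G34R and H3.3 G34W.

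Creld2 is an ER stress-induced protein with disulfide isomerase activity. Creld2 had 2784 and 2841 in H3.3 G34W K27R cells, 943 and 985 in H3.3 G34W K36R cells, 1942 and 1887 in H3.3 K27R cells and 1782 and 1844 in H3.3 G34R cells. It had 1593 and 2625 in H3.3 G34W cells, 1682 and 1104 in H3.1 G34W cells, 1596 and 2318 in H3.1 wild type cells and 2604 and 2532 in H3.3 wild type cells. H3.3 G34W K27R was highest and H3.3 G34W K36R lowest, but H3.3 wild type and replicate 2 of H3.3 G34W came close to the high end.

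Calreticulin, encoded by Calr, is a calcium-binding lectin chaperone for glycoproteins. Calr had 70919.5 and 70332 in H3.3 G34W K27R cells, 34191 and 33894 in H3.3 G34W K36R cells, 50002 and 50077 in H3.3 K27R cells and 43406 and 43517 in H3.3 G34R cells. It had 46478 and 60412 in H3.3 G34W cells, 38224 and 26859 in H3.1 G34W cells, 40802 and 44412 in H3.1 wild type cells and 44230.5 and 44560.4 in H3.3 wild type cells. H3.3 G34W K27R was above all others, and H3.3 G34W K36R and H3.1 G34W held the lowest libraries.

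Values of 3 further ER genes are given by their range. The disulfide isomerase Pdia6 ran over the libraries from 9733 in H3.1 G34W to 26345 in H3.3 G34W K27R, the chaperone Hyou1 from 4088 in H3.3 G34W to 8994 in H3.3 G34W K27R, and Herpud1, a factor of ER-associated degradation, from 2676 in H3.3 G34R to 5740.1 in H3.1 G34W. Both Pdia6 and Hyou1 were thus highest in the group that was highest for Hsp90b1 and Calr.

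Xbp1 encodes the factor that IRE1 activates by splicing. Xbp1 had 3239 and 3400.4 in H3.3 G34W K27R cells, 2958 and 2994 in H3.3 G34W K36R cells, 2716 and 2634 in H3.3 K27R cells and 2089.8 and 2097 in H3.3 G34R cells. It had 1938 and 2919 in H3.3 G34W cells, 3898 and 4501 in H3.1 G34W cells, 3859 and 4427 in H3.1 wild type cells and 2491 and 2544 in H3.3 wild type cells. The H3.1 groups were highest and H3.3 G34R, with replicate 1 of H3.3 G34W, lowest; H3.3 G34W K27R and H3.3 G34W K36R lay between.

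H3.3 G34W K27R cells set against H3.3 K27R cells, which asks what G34W adds where the transgene's lysine is already arginine, showed the clearest split of the 2 lists. Amino acid synthesis, transport and tRNA charging genes were lower and ER chaperones higher. Of 30 ATF4 genes 19 were lower and 1 higher, against 14.5% of all genes lower and 11.7% higher, and the median change was -0.92 on the log2 scale against 0.02 over all genes. Of 12 ER genes 6 were higher and 0 lower, with a median of 0.72; over all genes tested the median change lay between -0.03 and 0.02 in every comparison reported here. All 6 synthesis genes fell, as did 7 of 12 synthetases, 2 of 4 transporters and 4 of 8 regulators and effectors.

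The largest falls were those of Trib3, a pseudokinase induced by ATF4 and CHOP, and of the lipoprotein receptor Vldlr. Trib3 had 632 and 668 in H3.3 G34W K27R cells, against 6073 and 5816 in H3.3 K27R cells (log2 fold change and SE -3.19 ± 0.69, limma adjusted p = 0.00797). For Vldlr the libraries had 518 and 477 in H3.3 G34W K27R cells, against 4181 and 4345 in H3.3 K27R cells (-3.10 ± 0.71, limma adjusted p = 0.0102). In neither gene did the groups overlap.

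Slc7a5, the light chain of the large neutral amino acid transporter, had 2612 and 2519 in H3.3 G34W K27R cells, against 11519.6 and 10729.7 in H3.3 K27R cells (-2.12 ± 0.41, limma adjusted p = 0.00452). Phgdh, the first enzyme of serine synthesis, had 4277 and 4390.0 in H3.3 G34W K27R cells, against 16055 and 16091 in H3.3 K27R cells (-1.89 ± 0.33, limma adjusted p = 0.0027). Psat1, the next enzyme of that pathway, had 5039.8 and 4920.3 in H3.3 G34W K27R cells, against 16793 and 17197 in H3.3 K27R cells (-1.77 ± 0.43, limma adjusted p = 0.0133). All 3 sat several times lower with G34W K27R in both libraries.

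The exception was Wars, the tryptophanyl-tRNA synthetase, which is also known as an interferon-induced gene. It had 5895 and 5718 in H3.3 G34W K27R cells, against 3629 and 3735 in H3.3 K27R cells and rose (0.66 ± 0.21, limma adjusted p = 0.0421). Atf4 itself (-0.51 ± 0.18, limma adjusted p = 0.0572) and Ddit3 (0.26 ± 0.30, limma adjusted p = 0.557) were not called.

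Hsp90b1 rose most among the ER genes (0.99 ± 0.21, limma adjusted p = 0.00754), then Pdia4 (0.94 ± 0.12, limma adjusted p = 0.000529) and Manf, a secreted ER stress protein, at 6778 and 7438 in H3.3 G34W K27R cells, against 3939.9 and 3753 in H3.3 K27R cells (0.88 ± 0.27, limma adjusted p = 0.0367). Sdf2l1 (0.81 ± 0.22, limma adjusted p = 0.0208) and the co-chaperone Dnajb9 (0.74 ± 0.20, limma adjusted p = 0.0235) rose by less, and Hspa5 by 0.70 ± 0.21 (limma adjusted p = 0.034). Calls numbered 11 or 12 of 42 without any 1 of the 4 compared libraries (11.4% to 11.8% of all genes), against 26 with all, and 10 of the 26 calls were kept whichever of the 16 libraries was left out. None was called with nearly alike pairs counted as 1 sample, where 0% of all genes were called.

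Other ATF4 and amino acid response genes moved in the same way, with few calls among other synthetases and on the ER side. Of 26 further such genes 14 were lower and 2 higher, against 14.5% of all genes lower and 11.7% higher, with a median of -1.31. The 3 largest falls were in Stc2, a secreted stress glycoprotein, Cth, which makes cysteine, and the folate enzyme Aldh1l2. Cth averaged 68.4 in H3.3 G34W K27R and 1031 in H3.3 K27R cells, -3.89 ± 0.78, limma adjusted p = 0.00531. Aldh1l2 averaged 946 in H3.3 G34W K27R and 8086 in H3.3 K27R cells, -3.09 ± 0.55, limma adjusted p = 0.00286. Stc2 had 8 reads in all in the H3.3 G34W K27R libraries and 273 in the H3.3 K27R libraries, a ratio of 0.0265 (95% counting interval 0.0113 to 0.0529). The 2 rises were Slc43a1, an amino acid transporter with 114 reads in H3.3 G34W K27R and 7 in H3.3 K27R cells (ratio 14.7, counting interval 6.91 to 37.4), and Tnfrsf10b, a death receptor that averaged 1579 in H3.3 G34W K27R and 966 in H3.3 K27R cells, 0.71 ± 0.20, limma adjusted p = 0.0281. Of 8 other cytosolic synthetases 1 fell, near the 14.5% of all genes that were lower. It was Hars (2461 in H3.3 G34W K27R and 3869 in H3.3 K27R cells, -0.65 ± 0.17, limma adjusted p = 0.0171).

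Among 7 genes for eIF2 alpha kinases and related factors 3 rose and 1 fell, where 11.7% of all genes were higher and 14.5% lower. The amino acid sensor Eif2ak4 (GCN2) averaged 2872 in H3.3 G34W K27R and 1110.1 in H3.3 K27R cells, 1.37 ± 0.21, limma adjusted p = 0.00125. The viral RNA sensor Eif2ak2 (PKR), an interferon-induced gene, averaged 5421 in H3.3 G34W K27R and 3176 in H3.3 K27R cells, 0.77 ± 0.17, limma adjusted p = 0.00838. The haem sensor Eif2ak1 averaged 1953 in H3.3 G34W K27R and 1487 in H3.3 K27R cells, 0.39 ± 0.11, limma adjusted p = 0.0224. Eif2b5, a subunit of the factor that recharges eIF2, fell (2848 in H3.3 G34W K27R and 4348 in H3.3 K27R cells, -0.61 ± 0.14, limma adjusted p = 0.00864). Of 14 ER stress sensors and ER-associated degradation genes 0 were called by limma, with 2 at an unadjusted p under 0.05, and of 24 further ER folding genes 4 rose and 2 fell, near the 11.7% of all genes that were higher and 14.5% that were lower, with a median of 0.02. The 3 largest rises were Dnajc3 (8113 in H3.3 G34W K27R and 4478 in H3.3 K27R cells, 0.86 ± 0.12, limma adjusted p = 0.000909), Pdia3 (41029.7 in H3.3 G34W K27R and 24494 in H3.3 K27R cells, 0.74 ± 0.20, limma adjusted p = 0.0214) and Sdf2 (3114 in H3.3 G34W K27R and 2070.4 in H3.3 K27R cells, 0.59 ± 0.17, limma adjusted p = 0.0292), and the 2 falls were Serp1 (4549 in H3.3 G34W K27R and 8262 in H3.3 K27R cells, -0.86 ± 0.14, limma adjusted p = 0.0015) and P4hb (33782 in H3.3 G34W K27R and 53697 in H3.3 K27R cells, -0.67 ± 0.19, limma adjusted p = 0.0277).

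**Figure D4:**
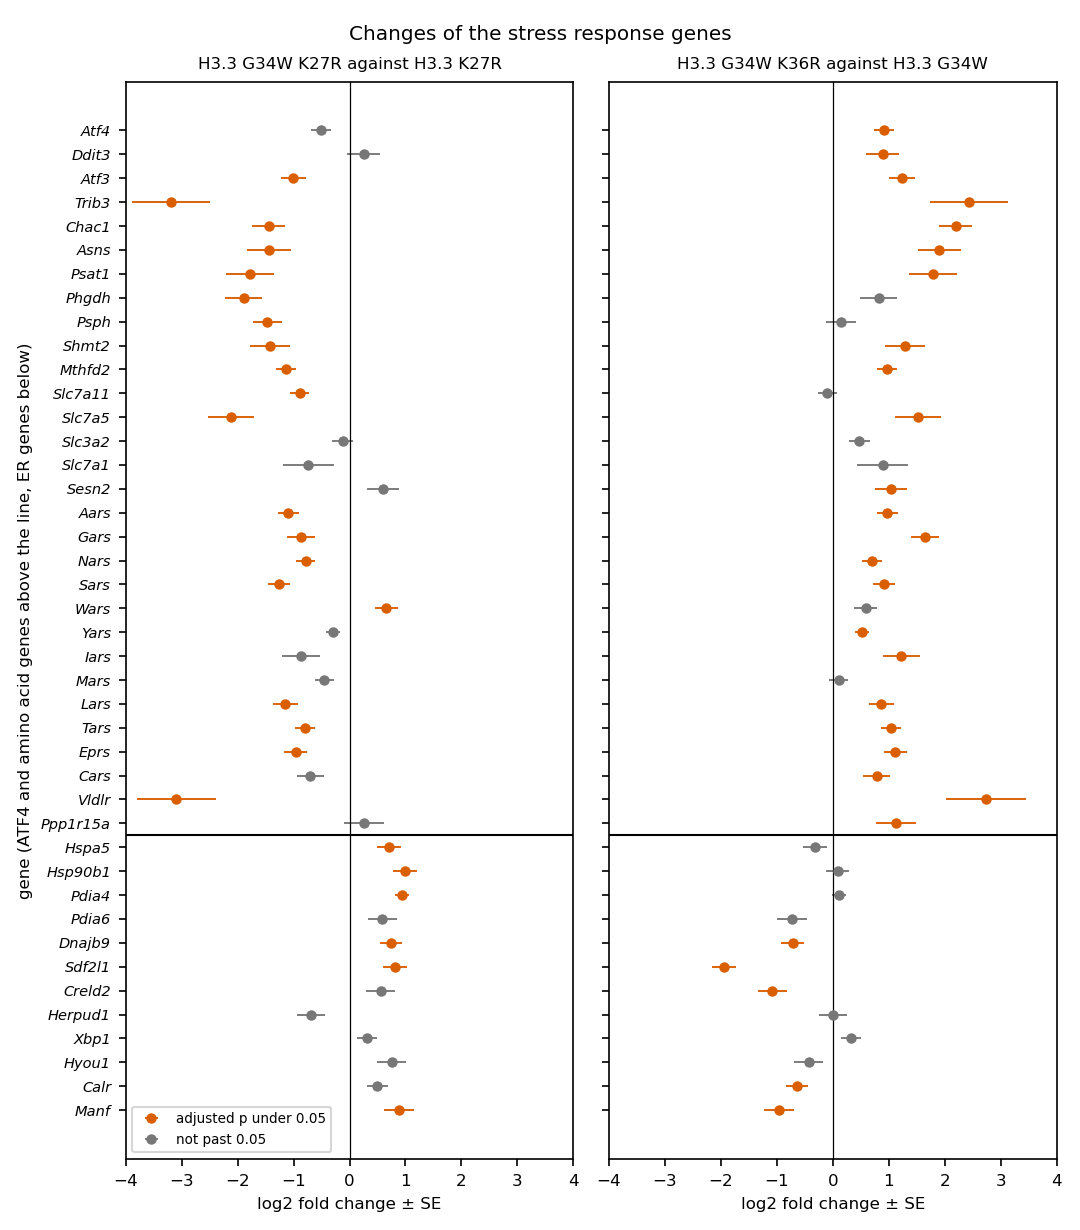
Log2 fold change (horizontal axis) with its standard error for each of the 42 genes in H3.3 G34W K27R against H3.3 K27R and in H3.3 G34W K36R against H3.3 G34W. Most ATF4 genes are left of 0 in the G34W K27R comparison and right of 0 in the G34W K36R one, and most ER genes the other way round.

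H3.3 G34W K36R cells set against H3.3 G34W cells gave the opposite picture: ATF4 genes were higher and ER chaperones lower. Of 30 ATF4 genes 23 were higher and 0 lower, against 14.4% of all genes higher and 16.2% lower, with a median of 0.97 against -0.03 over all genes. All 8 regulators and effectors rose, as did 10 of 12 synthetases, 4 of 6 synthesis genes and 1 of 4 transporters. Of 12 ER genes 5 were lower and 0 higher, with a median of -0.54.

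Vldlr had 5607 and 5672 in H3.3 G34W K36R cells, against 314 and 2271 in H3.3 G34W cells (2.74 ± 0.71, limma adjusted p = 0.0159), and Trib3 5341 and 5200.3 in H3.3 G34W K36R cells, against 360.4 and 2646 in H3.3 G34W cells (2.43 ± 0.69, limma adjusted p = 0.0245). Psat1 had 21571 and 21407 in H3.3 G34W K36R cells, against 3306 and 11654 in H3.3 G34W cells (1.79 ± 0.43, limma adjusted p = 0.0112). In all 3 genes the H3.3 G34W libraries were far apart, but both were below the H3.3 G34W K36R libraries. Chac1 rose by 2.19 ± 0.29, limma adjusted p = 0.0006, and Asns by 1.90 ± 0.38, limma adjusted p = 0.00514. Atf4 (0.92 ± 0.18, limma adjusted p = 0.00382) and Ddit3 (0.89 ± 0.30, limma adjusted p = 0.0445) rose as well.

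Of the ER genes Sdf2l1 changed most (-1.94 ± 0.22, limma adjusted p = 0.000223), followed by Creld2 (-1.08 ± 0.26, limma adjusted p = 0.0112), Manf (-0.96 ± 0.27, limma adjusted p = 0.024), Dnajb9 (-0.72 ± 0.20, limma adjusted p = 0.0245) and Calr (-0.64 ± 0.19, limma adjusted p = 0.0296). Hspa5 (-0.31 ± 0.21, limma adjusted p = 0.287) and Hsp90b1 (0.08 ± 0.21, limma adjusted p = 0.79) were not called. Without H3.3 G34W K36R replicate 1 or 2 the calls numbered 11 or 10 of 42 (13.6% or 13% of all genes), against 28 with both, and 10 of the 28 were kept whichever library was left out. A fit of these 4 libraries alone called 4 (10.8% of all genes). None was called with nearly alike pairs counted as 1 sample (1.04% of all genes). The H3.3 G34W K36R libraries were deeper than those of H3.3 G34W, and the part of depth was not tested.

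Beyond the 42, 15 of 26 further ATF4 and amino acid genes were higher and 1 lower. That compares with 14.4% of all genes higher and 16.2% lower, and the median of these 26 was 0.98. Cth averaged 1107 in H3.3 G34W K36R and 265 in H3.3 G34W cells, 2.75 ± 0.78, limma adjusted p = 0.0242. Slc43a1 averaged 57.1 in H3.3 G34W K36R and 11.0 in H3.3 G34W cells, 2.27 ± 0.40, limma adjusted p = 0.00242. The secreted hormone Fgf21 had 58 reads in H3.3 G34W K36R and 1 read in H3.3 G34W cells (ratio 53.3, counting interval 9.19 to 2139). The fall was in Gdf15, a stress cytokine, which averaged 7.34 in H3.3 G34W K36R and 56.8 in H3.3 G34W cells, -2.76 ± 0.45, limma adjusted p = 0.00181. Of 8 further synthetases 3 rose, led by Rars (4895 in H3.3 G34W K36R and 2965 in H3.3 G34W cells, 0.75 ± 0.17, limma adjusted p = 0.00865). Eif2ak4 (2109 in H3.3 G34W K36R and 1301 in H3.3 G34W cells, 0.70 ± 0.21, limma adjusted p = 0.03) and Eif2ak2 (3129 in H3.3 G34W K36R and 1996 in H3.3 G34W cells, 0.65 ± 0.17, limma adjusted p = 0.0165) were higher here too.

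Among 24 further ER folding genes 10 fell, against 16.2% of all genes, and 4 rose, near the 14.4% of all genes that were higher, with a median of -0.29. The falls were largest in the prolyl isomerases Ppic (3741 in H3.3 G34W K36R and 11844 in H3.3 G34W cells, -1.66 ± 0.13, limma adjusted p = 2.79e-05) and Ppib (5931 in H3.3 G34W K36R and 13516 in H3.3 G34W cells, -1.19 ± 0.18, limma adjusted p = 0.00112) and in Sdf2 (1331 in H3.3 G34W K36R and 2866 in H3.3 G34W cells, -1.11 ± 0.17, limma adjusted p = 0.00132), a paralogue of Sdf2l1. The rises were largest in Creb3l1, a membrane-bound transcription factor of matrix-secreting cells (2885 in H3.3 G34W K36R and 813 in H3.3 G34W cells, 1.83 ± 0.13, limma adjusted p = 1.28e-05), the oxidase Ero1l (8077 in H3.3 G34W K36R and 2501 in H3.3 G34W cells, 1.74 ± 0.33, limma adjusted p = 0.0039) and the lectin chaperone Canx (31317 in H3.3 G34W K36R and 19402 in H3.3 G34W cells, 0.72 ± 0.18, limma adjusted p = 0.0125). Of 14 ER stress sensors and degradation genes 2 rose and 3 fell, near the 14.4% of all genes that were higher and 16.2% that were lower.

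H3.3 G34W K27R was also set against H3.3 G34W, its single-mutant partner, and the G34W libraries are shared with the comparison above. CHOP and tryptophanyl-tRNA synthetase messages were higher and the cystine transporter message lower, with 3 chaperones higher. Of 30 ATF4 genes 2 were higher and 1 lower, fewer than the 9.24% of all genes higher and 12.4% lower, and the median was -0.07. Ddit3 rose by 1.94 ± 0.30, limma adjusted p = 0.00113. Wars had 5895 and 5718 in H3.3 G34W K27R cells, against 1964 and 2847 in H3.3 G34W cells (1.30 ± 0.21, limma adjusted p = 0.0016). Slc7a11, the cystine and glutamate exchanger, had 1777 and 1602 in H3.3 G34W K27R cells, against 2593 and 3524 in H3.3 G34W cells (-0.84 ± 0.17, limma adjusted p = 0.00531). Of the ER genes Hsp90b1 (1.08 ± 0.21, limma adjusted p = 0.00509), Sdf2l1 (0.77 ± 0.22, limma adjusted p = 0.0298) and Pdia4 (0.56 ± 0.12, limma adjusted p = 0.00874) rose, with a list median of 0.46. Without H3.3 G34W replicate 1 or 2 the count was 24 or 18 of 42 (26.3% or 26.1% of all genes), against 6 with both, and it was 3 without H3.3 G34W K27R replicate 2 (10.4%). The 4 libraries fitted alone gave 1 call (6.62% of all genes), and counting nearly alike pairs as 1 sample gave 0 (2.74%).

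The double mutants were also set against H3.3 wild type. The H3.3 wild type sample is shared by this and the next comparisons, so their values are not independent. In H3.3 G34W K27R, 2 ATF4 genes were higher and 1 lower, against 6.42% of all genes higher and 7.91% lower, and 2 of 12 ER genes were higher. These were Ddit3 (1.55 ± 0.36, limma adjusted p = 0.018), Wars (0.93 ± 0.26, limma adjusted p = 0.0362), Slc7a11 at 1777 and 1602 in H3.3 G34W K27R cells, against 3712 and 3778 in H3.3 wild type cells (-1.15 ± 0.20, limma adjusted p = 0.00432), Hsp90b1 (1.07 ± 0.26, limma adjusted p = 0.0213) and Pdia4 (0.91 ± 0.15, limma adjusted p = 0.00285). The list medians were -0.45 and 0.51, and calls in the ATF4 list were near or below the share of all genes. With nearly alike pairs counted as 1 sample, 1.11% of all genes were called. The 5 calls became 20 without either H3.3 G34W library (22.8% of all genes), 8 without either H3.1 G34W library (20.1%) and 2 without replicate 1 or 2 of its own (7.05% or 7.04%), 19 with the wild type pair counted as 2 (27.6%) and 0 with all nearly alike pairs counted as 1.

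In H3.3 G34W K36R, 6 of 30 ATF4 genes were higher and 0 lower than in H3.3 wild type, against 8.3% of all genes higher and 8.82% lower. Chac1 rose most (1.99 ± 0.36, limma adjusted p = 0.00554), then Gars (1.30 ± 0.30, limma adjusted p = 0.0165) and Sesn2, an inhibitor of mTORC1 signalling, at 2238 and 2111 in H3.3 G34W K36R cells, against 967 and 959 in H3.3 wild type cells (1.17 ± 0.35, limma adjusted p = 0.0438). Atf4 (0.87 ± 0.21, limma adjusted p = 0.0214) and Aars (0.85 ± 0.23, limma adjusted p = 0.0292) followed, and the list median was 0.72. Of 12 ER genes Sdf2l1 (-2.34 ± 0.27, limma adjusted p = 0.000499) and Creld2 (-1.41 ± 0.32, limma adjusted p = 0.0149) were lower, with a list median of -0.27. The calls rose above 8 without either H3.3 G34W library or either H3.1 G34W library, as did the share of all genes called. They fell below 8 without either library of H3.3 G34W K36R, or any 1 library of H3.3 G34W K27R, H3.3 G34R or H3.3 K27R. The shares of all genes for the latter fits are not given here. With the wild type libraries counted as 2 the calls became 19 (33.6% of all genes). With nearly alike pairs counted as 1 they became 0 (0.213%).

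The wild type transgenes of the 2 histone types were compared as well. H3.1 wild type cells, compared with H3.3 wild type cells, had 9 of 30 ATF4 genes higher and 0 lower, against 16.3% of all genes higher and 17% lower, with a median of 0.74; 33.4% of all genes were called in either direction. Atf3 rose most (1.83 ± 0.28, limma adjusted p = 0.00106), then Gars (1.55 ± 0.30, limma adjusted p = 0.00379), Chac1 (1.53 ± 0.36, limma adjusted p = 0.0096), Mthfd2 (1.18 ± 0.22, limma adjusted p = 0.00295) and Atf4 (1.01 ± 0.21, limma adjusted p = 0.00598). Of the ER genes Xbp1 (0.72 ± 0.21, limma adjusted p = 0.0271) and Pdia4 (0.44 ± 0.15, limma adjusted p = 0.0483) were higher and Sdf2l1 lower (-1.24 ± 0.27, limma adjusted p = 0.00632), with a list median of 0.08. The 12 calls became 26 without H3.3 G34W replicate 1 or 2 (42.8% or 42.7% of all genes), 5 after quantile normalization (30.9%), 1 with the compared groups alone (10.5%), 21 with the wild type libraries counted as 2 (49.8%) and 0 with nearly alike pairs counted as 1. With nearly alike pairs counted as 1, 4.9% of all genes were called. The H3.1 wild type libraries were the deeper ones, and the part of depth was not tested.

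The single H3.3 mutants differed little from H3.3 wild type at the test's threshold. With K27R 1 of 42 genes was called, Atf3 (1.23 ± 0.28, limma adjusted p = 0.0459), against 2.75% of all genes, while 29 of 30 ATF4 changes were above 0 with a median of 0.41 and 7 had an unadjusted p under 0.05. This single call was lost without any 1 library of H3.3 K27R, H3.3 G34R, H3.3 G34W K27R or H3.3 G34W K36R, and without H3.3 wild type replicate 2. The count was 8 without H3.3 G34W replicate 1 or 2 (6.95% or 6.96% of all genes), 3 without H3.1 G34W replicate 1 or 2 (5.2% or 5.19%), and 37 with the compared groups alone, where 55.4% of all genes were called.

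With G34R, limma called 0 of 42 genes against 2.72% of all genes, and 3 ATF4 genes had an unadjusted p under 0.05; 28 of 30 ATF4 changes were below 0, with a median of -0.44, and the ER median was -0.17. Without H3.3 G34W replicate 1 or 2, 8 of 42 were called, against 7.78% or 7.79% of all genes, and with the compared groups alone 33, where 60.7% of all genes were called. With G34W, limma called 0 of 42 against 1.18% of all genes, with 3 ATF4 genes and 1 ER gene at an unadjusted p under 0.05. Of 30 ATF4 changes 27 were below 0, with a median of -0.34, and the ER median was 0.11. Without H3.3 G34W replicate 2, which leaves the library with the lower ATF4 genes, 14 were called, against 12% of all genes. G34R against G34W gave 0 limma calls in the 42 genes, with 2 ER genes at an unadjusted p under 0.05, against 0.845% of all genes, and 5 or 6 without H3.3 G34W replicate 1 or 2, against 1.63% or 8.41% of all genes.

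On the H3.1 backbone G34W against wild type gave 0 limma calls in the 42 genes and 0% of all genes, with 2 genes of each list at an unadjusted p under 0.05 and medians of 0.15 and -0.17. Without H3.1 G34W replicate 1 there were 6 calls in the 42 genes, where 19.6% of all genes were called, and without H3.1 wild type replicate 1 there was 1, where 17.9% of all genes were called. Whether G34W acted differently on H3.1 than on H3.3 was tested as an interaction in limma, which called 0 of 42 genes against 0.197% of all genes, with 4 ATF4 genes at an unadjusted p under 0.05. It called 12 without H3.3 G34W replicate 2 (6.28% of all genes) and 3 without H3.1 G34W replicate 1 (6.74%). The limma interaction of G34W with K27R called 0 of 42 against 7.95% of all genes, with 9 ATF4 and 3 ER genes at an unadjusted p under 0.05. Its medians were -0.55 for the ATF4 list and 0.54 for the ER list. With all libraries in, the effect of adding G34W to K27R was thus not shown to differ from that of G34W alone. Calls appeared when either library of H3.3 G34W, H3.1 G34W or H3.1 wild type was left out, so that result depended on the libraries fitted. Without either H3.3 G34W library the share of all genes called rose as well.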

How the data were processed

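Polyadenylated RNA of 16 libraries was measured. Expected counts per gene came from RSEM 1.2.4 and the build mm9, per the submitters' processing notes; aligner and annotation are not given in the sources used here. The values the authors deposited are a signal: expected counts scaled by 1 constant per library (a median normalization, per the file header and name), with 41.5% to 47.6% of values within 0.01 reads of a whole read, so counts could not be recovered and no count model was run.

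log2(value + 1) of 12670 genes, those averaging 10 or more, was fitted with limma 3.58.1 in R 4.3.3 (1 coefficient per group, eBayes with trend and robust, statmod 1.5.0), two-sided, with Benjamini-Hochberg adjustment over all genes and a threshold of 0.05; "higher", "lower", "rose" and "fell" are used of genes past it. All 8 groups entered, as 15 samples with 7 residual degrees of freedom. Each SE thus rests on nearly alike pairs and pairs far apart together. It can be too small where a pair far apart is compared and too large between nearly alike pairs. Fold changes are of the first-named group over the other, ± SE. Intervals cover counting error only (95%, exact Clopper-Pearson).

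The genes and lists were chosen with earlier results of these data known. Every-library values are given for Atf4, Ddit3, Asns, Hspa5, Xbp1 and the 6 largest F statistics of each list, and changes for up to 5 called genes each way per comparison and up to 3 each way of each further list. Promoters are from RefSeq (GRCm38.p6), used for sequence only; their coordinates are not those of mm9. Replicate numbers did not pair the libraries. Alternatives varied pseudocount, filter, normalization, moderation, the libraries and groups fitted, and the counting of close pairs.

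One promoter site and one cell type marker are not reported here.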

Additional observations from a re-analysis of the deposited data

How the results depend on the processing

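No change called in any of the 42 genes reversed its direction under any alternative. Of 86 called changes, 86 were kept with a pseudocount of 0.5 or 5 and with a minimum mean of 50, 84 after trimmed-mean rescaling, 81 with no filter, 80 without trend and robust moderation, 73 after quantile normalization, 46 with the compared groups alone and 0 with the 5 nearly alike pairs each counted as 1 sample. Leaving out 1 library at a time kept 1136 of 1376 values, and 33 of 86 changes were kept in all 16 such fits. Group means of the list medians moved by at most 0.162 (ATF4) and 0.144 (ER) over 3 alternatives, a pseudocount of 0.5, rescaling and quantile normalization, both in H3.1 wild type after quantile normalization; the SD between libraries, pooled over the groups, was 0.206 and 0.183, which is wider than the gap within the nearly alike pairs.

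Counts of called genes out of 42, leaving out 1 library at a time, ran from 11 to 35 for H3.3 G34W K27R against H3.3 K27R, 10 to 30 for H3.3 G34W K36R against H3.3 G34W, 3 to 24 for H3.3 G34W K27R against H3.3 G34W, and 0 to 6 for H3.3 G34R against H3.3 G34W. With H3.3 wild type as the control they ran from 2 to 20 for H3.3 G34W K27R, 2 to 24 for H3.3 G34W K36R, 8 to 26 for H3.1 wild type, 0 to 8 for H3.3 K27R and for H3.3 G34R, and 0 to 14 for H3.3 G34W. They ran from 0 to 6 for G34W on the H3.1 backbone, 32 to 42 for any difference, 0 to 12 for the interaction of G34W with histone type and 0 to 21 for that with K27R. The share of all genes called moved over these fits too, so the ranges are not results about the 42 genes alone. With all libraries in, that share was 26.2%, 30.6%, 21.6% and 0.845% in the order first given. Against H3.3 wild type it was 14.3%, 17.1%, 33.4%, 2.75%, 2.72% and 1.18% in the order above. For G34W on H3.1, any difference and the interactions it was 0%, 66.6%, 0.197% and 7.95%.

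Fitted with the compared groups alone, against H3.3 wild type 39 were called for H3.3 G34W K27R (67.1% of all genes), 41 for H3.3 G34W K36R (75.5%), 37 for H3.3 K27R (55.4%), 33 for H3.3 G34R (60.7%) and 1 for H3.1 wild type (10.5%); 42 were called for H3.3 G34W K27R against H3.3 K27R (76.3%), 1 against H3.3 G34W, and 4 for H3.3 G34W K36R against H3.3 G34W. This setting could not be run for any difference over the groups. With nearly alike pairs counted as 1, 5 were called for any difference, against 8.13% of all genes. In each comparison that had calls 0 were then called, against 0% to 4.9% of all genes. Quantile normalization gave 5 for H3.1 wild type (30.9% of all genes), 0 for H3.3 K27R (3.97%) and 2 for the interaction with K27R (9.62%). Rescaling gave 0 for H3.3 K27R (2.7%) and 1 for that interaction (8.12%). No filter gave 0 for H3.3 K27R (2.41%). For each double mutant 19 were called with H3.3 wild type counted as 2 libraries. The share of all genes was 27.6% for H3.3 G34W K27R and 33.6% for H3.3 G34W K36R. The same setting called 21 for H3.1 wild type (49.8%), 4 for H3.3 K27R (8.87%) and 1 for H3.3 G34R (10.4%). For the interaction with K27R it called 9 (15.6%). The replicate block on top of that gave 19 and 19, 22, 4, 1 and 9 in this order. Its shares of all genes were 26%, 31.5%, 47.6%, 7.92%, 9% and 14.2%. The replicate numbers do not pair the libraries, since the replicate differences of 28 pairs of groups correlated at -0.265 to 0.0598, with 0 over 0.1. Across these settings, and on leaving out 1 library, the share of all genes called moved as well. In the main fit all groups share 1 estimate of the spread, to which H3.3 wild type, as 1 sample, adds nothing. Leaving out a library of another group changes that estimate in every comparison, with 6 residual degrees of freedom instead of 7. The part of this in the moves was not tested.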
